A study of Mus musculus with 8 samples.

Results

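The genes *Hmgcs1*, *Idi1*, *Fdps*, *Sqle*, *Lss*, *Cyp51*, *Dhcr7* and *Insig1* of cholesterol biosynthesis, 8 of 45583 symbols in the table of gene counts and taken from it by symbol, were followed in the juvenile mouse ovary. The question was whether ovaries without ghrelin-O-acyltransferase (GOAT, gene *Mboat4*), the enzyme that attaches a fatty acid to the gut peptide ghrelin, differ from wild type (WT) ovaries. Ovaries of 4 WT and 4 GOAT KO female mice, all 3 weeks old on a C57/Bl6 background, were sequenced, 1 library per mouse, and libraries are named here by animal number. The knockout is life-long, WT and GOAT KO animals were littermates of heterozygous parents, and no other allele or agent was used. Which animals shared a litter was not given in the sources used here.

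Cholesterol is built from acetyl-CoA through mevalonate, isoprenoid units, squalene and lanosterol. In the ovary it is both a membrane lipid and the precursor of every steroid hormone. The genes of the pathway are switched on together by the transcription factor SREBP2 when membranes are poor in sterol, and INSIG proteins hold that factor back when sterol is plentiful. *Hmgcs1* makes HMG-CoA, the precursor of mevalonate, *Idi1* isomerizes the isoprenoid unit, and *Fdps* joins such units to farnesyl diphosphate. *Sqle* oxidizes squalene, *Lss* closes it into lanosterol, *Cyp51* removes a methyl group from lanosterol and *Dhcr7* carries out a late reduction. *Insig1* makes no sterol and is the brake on the pathway.

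The counts on genes summed to between 16147216 and 19481798 per library. *Mboat4* had 1, 1, 1 and 3 counts in the WT libraries and 5, 7, 7 and 8 in the GOAT KO libraries, which goes against the labels. The part of the gene that was deleted is not given in the sources used here, so these few counts do not settle the labels. The study also checked *Mboat4* by PCR in juvenile ovaries, and the outcome of that check is not reported here. Each direction below is given as the labels have it. WT 1120 and GOAT KO 1139 stood apart from their groups, with a chi-square per gene of 16.5 to 25.0 against the other WT libraries and 11 to 14 against the other GOAT KO libraries, where the remaining pairs reached 3.96 to 8.95 in WT and 4.51 to 6.28 in GOAT KO. WT 1118 lay apart in another way, at 0.76 on the second dimension of a multidimensional scaling where the other 7 libraries lay between -0.46 and 0.32, and it was the highest library for 20.6% and the lowest for 23.5% of all tested genes. The ovary lists were present in all libraries: 7 granulosa cell genes summed to between 4407 and 5595 CPM (counts scaled to a common library size by TMM), 6 theca genes to between 1964 and 3161 CPM and 9 oocyte genes to between 968 and 1190 CPM. The 6 fat cell genes summed to 613 CPM in GOAT KO 1139 and to between 15.04 and 36.3 CPM in the other 7 libraries. In bulk tissue, fewer cells of a type and less RNA per cell cannot be told apart.

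No member passed the test for a difference between the libraries labelled GOAT KO and those labelled WT, which does not show that the levels were equal. All 8 passed the filter on low counts, and 0 of the 8 passed an adjusted p under 0.05 (edgeR's quasi-likelihood test, Benjamini-Hochberg over 16601 genes), a rule that 0.0241% of all tested genes met. The study's own threshold, which asks for a log2 fold change of more than 0.5 in either direction and an unadjusted p under 0.05, was also met by 0 of the 8, against 1.67% of all tested genes. An unadjusted p under 0.05 alone was reached by 0 of the 8 and by 4.62% of all tested genes. Log2 fold changes, GOAT KO over WT, ran from -0.21 for *Sqle* to 0.02 for *Fdps*, and 7 of the 8 were below 0, as were 50.1% of all tested genes. Their median was -0.14 beside -0.00035 over all genes. The values of the 2 groups overlapped for all 8 genes. This describes their values only, because the share of all tested genes with such overlap is not given here. Of the 8, 7 had a 95% interval that lay within 0.5 of 0 on either side, so a change past the size the study asked for lay outside the interval of each of these. The exception was *Idi1*.

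**Figure D1:**
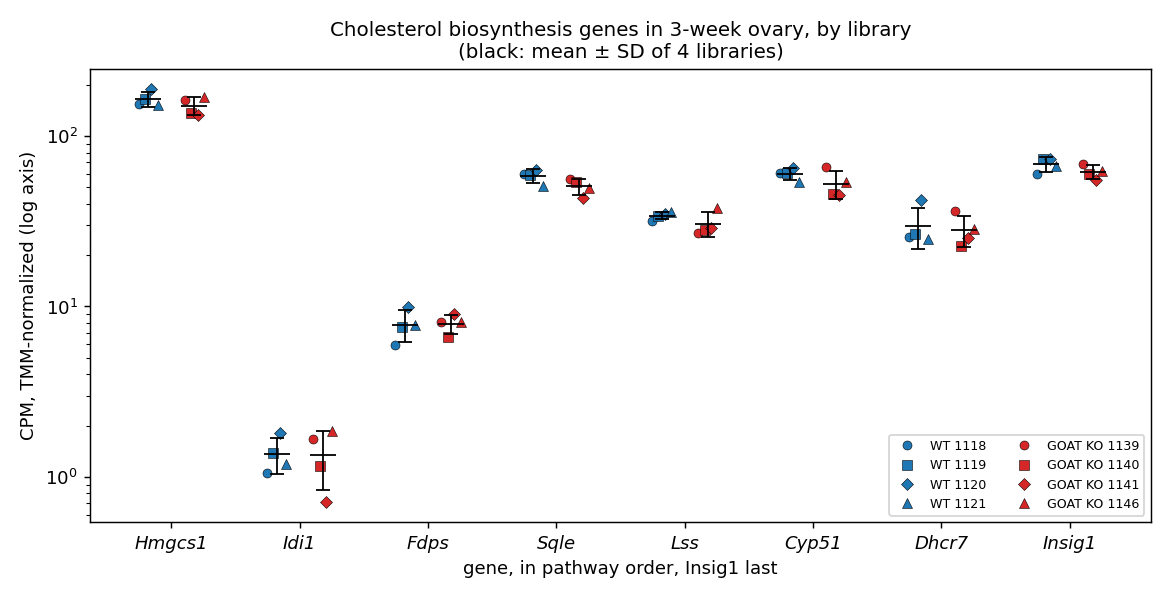
Expression of the 8 genes in each library, in TMM-normalized CPM on a log axis, with WT in blue, GOAT KO in red, 1 marker shape per animal, and the mean ± SD of 4 libraries in black. The red and blue points of every gene overlap, and *Hmgcs1* (133.8 to 188.4 CPM) stands about 2 decades above *Idi1* (0.716 to 1.86 CPM).

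Compared between genes, the level per length of exon (RPKM, from TMM CPM and the union of annotated exons) gave a clear order. *Hmgcs1* was highest at 35.9 ± 3.65 RPKM (SD, n = 4 WT), followed by *Insig1* at 22.1 ± 2.13 and *Cyp51* at 13.6 ± 1.09. *Sqle* stood at 10.5 ± 0.962, *Dhcr7* at 5.12 ± 1.41 and *Lss* at 3.16 ± 0.153 RPKM. *Fdps*, at 1.86 ± 0.394, and *Idi1*, at 0.389 ± 0.0937, were lowest. Over all 8 libraries, the ranges of neighbours in this order overlapped only for *Cyp51* (10.2 to 14.9 RPKM) and *Sqle* (7.83 to 11.5 RPKM). *Fdps* and *Idi1* are the members whose reads were hard to place, as described further on, so their rank is uncertain.

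*Hmgcs1* lies on chromosome 13 (119690379 to 119708260, plus strand, GRCm38). It was counted at 153.4, 165.4, 188.4 and 152.3 CPM in WT 1118, 1119, 1120 and 1121, and at 163.1, 136.9, 133.8 and 169.3 CPM in GOAT KO 1139, 1140, 1141 and 1146. WT 1120 was the highest library and GOAT KO 1141 the lowest, and 2 GOAT KO libraries lay inside the WT range. This gave a log2 fold change of -0.13 (SE 0.095, adjusted p = 0.983, edgeR), and the difference in mean CPM had p = 0.286 in a two-sided exact permutation test, for which 4 against 4 libraries allow no p below 0.0286.

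*Sqle*, on chromosome 15 (59315077 to 59331192, plus strand), came nearest to a difference with all 8 libraries. Its values were 59.8, 59.4, 63.5 and 50.9 CPM in the WT libraries and 56.0, 53.6, 43.4 and 49.7 CPM in the GOAT KO libraries, in the same order of animals. All 4 GOAT KO values lay under the WT median, although WT 1121 lay below 2 of them. Mean GOAT KO CPM was 86.8% of the WT mean. For the fitted log2 fold change, edgeR gave -0.21 (SE 0.093, 95% interval -0.41 to 0.00017), with an unadjusted p of 0.0502 and an adjusted p of 0.983, and exact permutation gave p = 0.0857.

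*Lss*, on chromosome 10 (76531588 to 76557138, plus strand), had the tightest WT values of the 8 genes, at 31.9, 34.1, 34.7 and 35.8 CPM. Of the GOAT KO libraries, 1139, 1140 and 1141 lay below all WT values, at 27.1, 28.2 and 28.9 CPM, whereas 1146 was the highest of all 8 at 38.1 CPM. The coefficient of variation was 4.83% in WT and 16.6% in GOAT KO. The fitted log2 fold change came to -0.16 (SE 0.11, adjusted p = 0.983, edgeR; exact permutation p = 0.229). Without GOAT KO 1146 it was -0.28, with an unadjusted p of 0.00394 and an adjusted p of 0.993 (edgeR), and with the 6 libraries left without WT 1120 and GOAT KO 1139 it was -0.098.

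*Cyp51*, on chromosome 5 (4081145 to 4104746, minus strand), was at 60.4, 60.9, 65.2 and 53.6 CPM in WT. In GOAT KO 1139 it reached 65.9 CPM, the highest of all, and in the other GOAT KO libraries 45.6, 44.9 and 53.9 CPM. Over 8 libraries the fit gave a log2 fold change of -0.19 (SE 0.12, adjusted p = 0.983, edgeR; exact permutation p = 0.257). Without WT 1120 and GOAT KO 1139, the 2 libraries that stand apart from their groups, it was -0.28 (SE 0.088, 95% interval -0.47 to -0.085), with an unadjusted p of 0.00911 and an adjusted p of 0.425. Without GOAT KO 1139 alone it was -0.32, with an unadjusted p of 0.00519 and an adjusted p of 0.831 (edgeR). GOAT KO 1139 is the library with the fat cell genes, and their part in the *Cyp51* value was not tested. The exons of *Cyp51* share 166 bases with *Akap9* on the other strand, those of *Hmgcs1* 557 with *Gm48342*, those of *Lss* 381 with *4930483K19Rik* and those of *Idi1* 323 with *Gm48574*, each on the other strand as well. Reads there cannot be told apart unless strand was used in counting.

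*Dhcr7*, on chromosome 7 (143823145 to 143848410, plus strand), had 1 WT library far above the others. WT 1118, 1119 and 1121 were at 25.5, 26.6 and 25.0 CPM, and WT 1120 was at 42.0 CPM. The GOAT KO libraries were at 36.2, 22.6, 25.2 and 28.6 CPM, with 1139 highest. GOAT KO over WT, this was a log2 fold change of -0.083 (SE 0.19, adjusted p = 0.986, edgeR; exact permutation p = 0.686). Without WT 1120 it was 0.13, and without GOAT KO 1140 it was 0.0081.

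*Insig1*, on chromosome 5 (28071363 to 28078662, plus strand), was at 59.8, 73.4, 73.7 and 66.9 CPM in WT while the GOAT KO libraries gave 68.8, 60.2, 55.0 and 62.4 CPM. All 4 GOAT KO values lay under the WT median of 70.1 CPM, and only GOAT KO 1141 lay under all WT values. A log2 fold change of -0.15 resulted (SE 0.088, adjusted p = 0.983, edgeR; exact permutation p = 0.2).

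*Fdps*, on chromosome 3 (89093588 to 89101959, minus strand), had 96, 137, 182 and 142 counts in WT and 135, 108, 176 and 139 in GOAT KO. In CPM this was 5.94, 7.60, 9.98 and 7.73 against 8.07, 6.59, 9.0 and 8.07, and all GOAT KO values lay inside the WT range. The fit put its log2 fold change at 0.02 (SE 0.16, adjusted p = 0.993, edgeR; exact permutation p = 0.857). *Idi1*, on chromosome 13 (8885501 to 8892451, plus strand), had 17, 25, 33 and 22 counts in WT and 28, 19, 14 and 32 in the knockout libraries. Its log2 fold change was -0.03 (SE 0.30, 95% interval -0.69 to 0.64, adjusted p = 0.995, edgeR; exact permutation p = 0.943), so both a fall and a rise of the size the study asked for lay inside the interval.

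**Figure D2:**
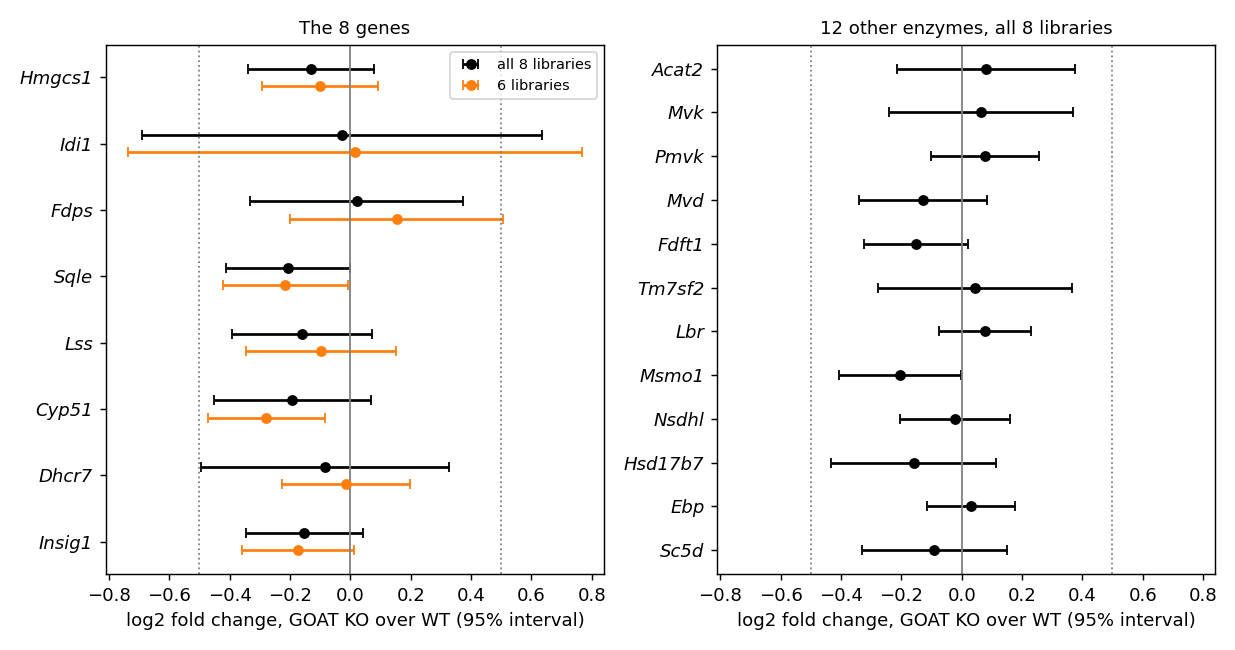
Log2 fold changes, GOAT KO over WT, with 95% intervals from edgeR's quasi-likelihood fit, for the 8 genes with all 8 libraries (black) and with the 6 libraries left without WT 1120 and GOAT KO 1139 (orange), and for 12 of the other enzymes of the pathway with all 8 libraries. Dotted lines mark 0.5 on either side of 0, and no point lies beyond them.

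With the 6 libraries, 6 of the 8 log2 fold changes were below 0 (49.7% of all tested genes) and their median was -0.10. *Cyp51* and *Sqle* had an unadjusted p under 0.05, 2 of 8 against 9.46% of 16641 tested genes. The value of *Sqle* was -0.22 (SE 0.094, adjusted p = 0.524, edgeR). None of the 8 passed an adjusted p under 0.05 or the study's threshold, met by 0.12% and 2.39% of genes with these libraries.

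The other 14 enzymes of the pathway were likewise without a call: 0 of 14 passed either rule, 8 were below 0 and 6 above, and the median log2 fold change was -0.05. With the 6 libraries, 7 were below 0 and 7 above, and the median was 0.008. *Msmo1*, which oxidizes the methyl groups left after *Cyp51*, was at 98.3, 103.3, 126.2 and 92.7 CPM in WT, and the GOAT KO libraries gave 96.1, 88.5, 84.9 and 95.4 CPM. Its log2 fold change was -0.21 (SE 0.092, unadjusted p = 0.0481, adjusted p = 0.983, edgeR), and with the 6 libraries it was -0.13 (SE 0.067, unadjusted p = 0.0764, edgeR). *Fdft1*, which makes squalene, was at -0.15 (SE 0.078). The remaining enzymes plotted ran from -0.16 (*Hsd17b7*) to 0.08 (*Acat2*).

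Among 9 tested genes that take isoprenoid units into other products, 0 passed either rule and the median was 0.01. *Ggps1*, which makes geranylgeranyl diphosphate, was at -0.07 (SE 0.067).

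The genes that sense sterol and govern the pathway numbered 16, with 7 above and 9 below 0, a median of -0.03 and no adjusted p under 0.05. With all 8 libraries 1 of the 16, below 0, passed the study's threshold, and with the 6 libraries 0 did. An unadjusted p under 0.05 (edgeR) was reached by 2 with all 8 libraries and by 3 with the 6. The shares of all tested genes were 4.62% and 9.46%. *Srebf2*, which encodes SREBP2, varied little across the 8 libraries, at 96.2 to 108.4 CPM, with a log2 fold change of 0.06 (SE 0.051, 95% interval -0.05 to 0.17). *Insig2*, the second INSIG gene, was at 0.09 (SE 0.089).

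Fatty acid synthesis, which shares SREBP control with sterol synthesis, had 10 of 11 genes above 0 with a median of 0.14 and 1 past the study's threshold, whereas with the 6 libraries 9 of 11 were above 0 with a median of 0.045 and 0 passed it. That gene was *Scd1*, the desaturase that makes oleate, at 332.8 CPM in GOAT KO 1139 and 11.4 to 20.8 CPM in the other 7 libraries. All 5 tested fat cell genes passed the study's threshold with all 8 libraries, among them *Cfd* and *Fabp4*, and 1 of 5 did with the 6. *Fads2*, another desaturase, was highest in GOAT KO 1139 as well, at 144.8 CPM. *Lep*, which fat cells secrete, had 91 counts in GOAT KO 1139 and 0 to 6 in the others. In the same library, 4 of the 8 members (*Sqle*, *Cyp51*, *Dhcr7* and *Insig1*) had their highest GOAT KO value. The share of all tested genes for which this holds is not given here. Over all 8 libraries, GOAT KO 1139 was the highest for 1 member (*Cyp51*) and for 12.3% of all tested genes. The part of fat cell RNA in the members' values was not tested beyond the values without that library.

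Across libraries, several members went up and down together, in a way that crossed the groups. WT 1120 was the highest library for 5 of the 8 (*Hmgcs1*, *Sqle*, *Dhcr7*, *Fdps* and *Insig1*), and for 5 of the 14 other enzymes, as it was for 19.8% of all tested genes. GOAT KO 1141 was the lowest for 5 of the 8 (*Hmgcs1*, *Sqle*, *Cyp51*, *Idi1* and *Insig1*), for 3 of the 14 other enzymes and for 10.8% of all tested genes. The mean of the 8 standardized log2 CPM was 1.28 in WT 1120, 0.41 in WT 1119, -0.09 in WT 1121 and -0.32 in WT 1118. In GOAT KO it was 0.38 in 1139, 0.27 in 1146, -0.86 in 1140 and -1.07 in 1141. The spread inside each group was thus wider than the distance between the groups.

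**Figure D3:**
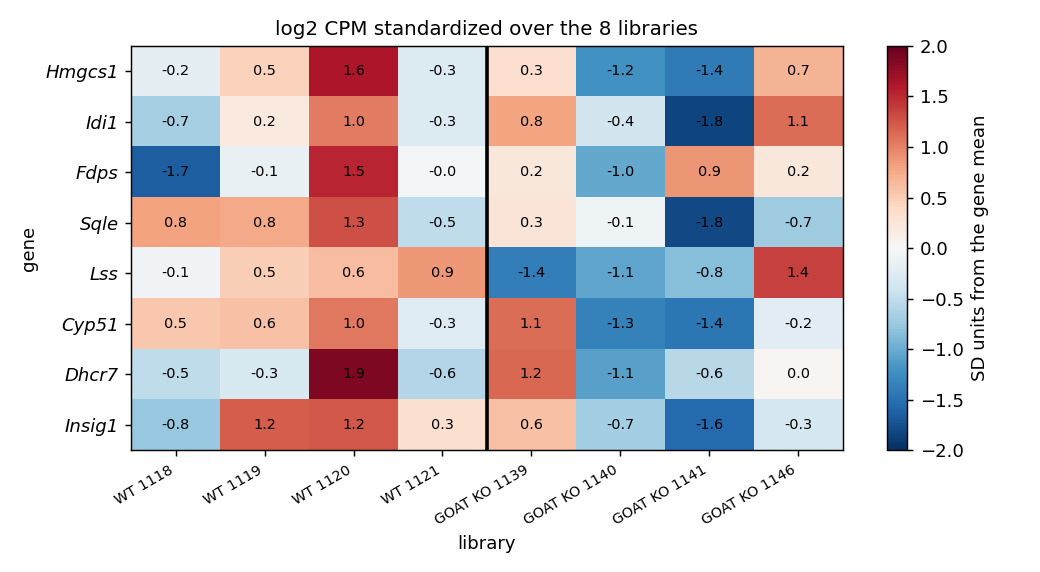
Log2 CPM of each gene, standardized over the 8 libraries (SD units from the mean of the gene), with WT left and GOAT KO right of the black line. WT 1120 is above the mean for every gene, and GOAT KO 1140 is below it for every gene, while *Fdps* and *Lss* depart from the column pattern of the others.

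*Hmgcs1* followed the mean of the other 7 members most closely (Pearson r = 0.978, Spearman rho = 0.905, 8 libraries), and *Insig1* (r = 0.833), *Idi1* (0.797), *Cyp51* (0.794) and *Dhcr7* (0.781) followed it too. *Sqle* (0.594), *Lss* (0.344) and *Fdps* (0.324) did so less. These values describe 8 points that share one normalization per library. Of the other enzymes, *Sc5d* (r = 0.914) and *Msmo1* (0.902) were nearest to the mean of all 8, at ranks 36 and 52 of 16593 genes, whereas *Hsd17b7* ran the other way (r = -0.43). The 5 genes most like the members' mean were *Uck2* (r = 0.988), *Tug1* (0.982), *Flrt1* (0.964), *Prr3* (0.962) and *Plekha2* (0.961), which are no enzymes of the pathway.

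The promoters of the 2 members that followed the rest most closely are shown because such genes are commonly driven through a sterol regulatory element with CCAAT and GC boxes. The windows are from RefSeq (GRCm38.p6) and run from 250 bases before to 50 bases after the start of transcription, 5′ to 3′ on the strand of the gene. The window of *Hmgcs1* is chr13:119690101-119690400 (plus strand) and that of *Insig1* is chr5:28071162-28071461 (plus strand). Capitals mark TCACNCCAC (the element), CCAAT and GGGCGG on either strand, and no matches overlap.
Hmgcs1: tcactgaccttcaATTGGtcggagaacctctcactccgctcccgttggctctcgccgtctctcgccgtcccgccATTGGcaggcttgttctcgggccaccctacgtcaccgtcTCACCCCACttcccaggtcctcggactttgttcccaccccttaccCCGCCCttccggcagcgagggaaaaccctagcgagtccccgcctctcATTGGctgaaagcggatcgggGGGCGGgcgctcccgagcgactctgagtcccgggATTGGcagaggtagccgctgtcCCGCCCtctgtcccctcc
Insig1: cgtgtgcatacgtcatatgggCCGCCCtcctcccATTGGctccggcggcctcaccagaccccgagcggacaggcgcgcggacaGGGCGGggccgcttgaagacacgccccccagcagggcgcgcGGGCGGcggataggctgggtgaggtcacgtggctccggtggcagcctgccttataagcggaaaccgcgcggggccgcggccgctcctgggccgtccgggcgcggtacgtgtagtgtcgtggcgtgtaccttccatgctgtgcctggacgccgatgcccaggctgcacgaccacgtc
Of the 8 members, 6 had a window in the table, and *Dhcr7* had 3 of them. The element TCACNCCAC was found once among these 8 windows, in *Hmgcs1*, as TCACCCCAC starting 137 bases before the start, and 1.24% of 32851 windows in the table hold it. The *Hmgcs1* window also holds 4 CCAAT and 3 GGGCGG matches, and that of *Insig1* 1 and 3. CCAAT is in 37.4% and GGGCGG in 35.7% of all windows. A match is a description of the letters, and their absence in a window says nothing about binding of a factor.

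The low counts of *Fdps* and *Idi1* went with a second feature that the other members lacked, namely near-identical copies elsewhere in the genome. In every library the deposited counts summed to the number of reads that mapped to a single feature, and 13.6% to 14.5% of reads mapped but fell neither in that class nor in the class without a feature. Of the 50-base windows (the read length) along the coding sequence, 67.1% of those of *Fdps* and 79.0% of those of *Idi1* also occurred, letter for letter, in an annotated gene at another place. The share was 9.07% for *Insig1* and 0 for the other 5 members. The copies are processed pseudogenes, 5 for *Fdps* and 3 for *Idi1*, at 90% identity or more over at least 200 bases.

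The closest are *Gm3571* (chromosome 10, 93778660 to 93779719, 98.9% identity) and *Gm5873* (chromosome 6, 6735427 to 6736492, 96.7%) for *Fdps*, and *Gm13502* (chromosome 2, 53696121 to 53696804, 100% over 684 bases) for *Idi1*. A stretch of 60 bases of each is shown to make plain what a 50-base read can and cannot tell apart, with capitals for bases that differ from the member. For *Fdps* it is bases 1059 to 1118 of the transcript, from which *Gm3571* differs at 1 base and *Gm5873* at 6.
Fdps: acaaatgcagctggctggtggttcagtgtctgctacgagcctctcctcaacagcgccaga
Gm3571: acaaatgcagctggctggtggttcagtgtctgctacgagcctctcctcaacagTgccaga
Gm5873: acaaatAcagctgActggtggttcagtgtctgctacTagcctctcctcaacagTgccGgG
For *Idi1* it is bases 528 to 587 of the transcript, where *Gm13502* does not differ.
Idi1: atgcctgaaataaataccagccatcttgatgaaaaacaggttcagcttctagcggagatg
Gm13502: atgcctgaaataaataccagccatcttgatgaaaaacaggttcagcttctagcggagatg
The 3 copies of *Fdps* that are in the count table, all without introns, held 1628 counts over the 8 libraries against 1115 for *Fdps* itself. The 1 such copy of *Idi1* held 75 against 190. In addition, the annotated gene *Gm43738* shares 1124 exon bases and the strand with *Fdps*.

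The other deposited readouts gave these 2 genes other levels relative to their counts. From the coverage of the transcripts assembled by StringTie, 4031 reads were implied for *Fdps* over the 8 libraries, 3.62 times its counts, and 1453 for *Idi1*, 7.65 times its counts. Only transcripts with at least 50% of their bases in the exons of the member were used. For *Idi1* there was none in WT 1119 and GOAT KO 1141. For the other 6 members the ratio lay between 0.763 (*Lss*) and 1.28 (*Insig1*). Reads across splice junctions, which a copy without introns cannot give, came to 30 for *Fdps* (2.69% of its counts) and to 0 for *Idi1*, where 3 reads would be 1.58% of its 190 counts. They came to between 6.10% (*Insig1*, 2 junctions) and 19.8% (*Hmgcs1*, 11 junctions) of the counts of the others. The level and the group comparison of *Fdps* and *Idi1* therefore hold only for the reads that were assigned to them, and whether the copies lowered their counts was not tested.

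**Figure D4:**
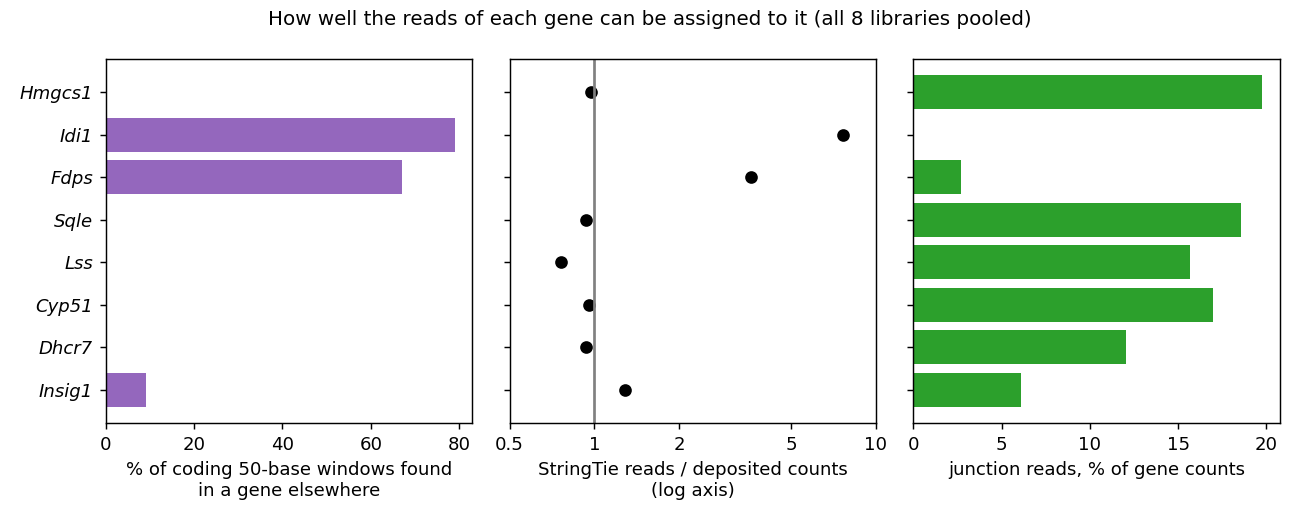
Measures of how reads of the 8 genes could be placed, with the 8 libraries pooled: the percent of coding 50-base windows that also occur in a gene elsewhere, the reads implied by StringTie over the deposited counts (log axis), and junction reads as percent of counts. *Idi1* and *Fdps* stand apart in all of them, with 79.0% and 67.1% of windows shared, ratios of 7.65 and 3.62, and 0 and 2.69% junction reads.

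Junction reads gave a second, sparser view of the group comparison for the 6 members that had enough of them. As reads per 1000000 junction reads, *Hmgcs1* was at 202 ± 11.7 in WT and 184 ± 19.2 in GOAT KO (SD, n = 4 each), a log2 ratio of -0.14, next to -0.13 from the counts. *Sqle* (-0.15), *Cyp51* (-0.19) and *Lss* (-0.30) kept the sign of their counts. *Dhcr7*, at 19.8 ± 6.96 in WT and 23.2 ± 5.32 in GOAT KO (log2 ratio 0.23), and *Insig1*, at 23.0 ± 3.39 and 25.9 ± 2.10 (0.17), had the opposite sign to theirs. For *Dhcr7*, 1 of 11 junctions was found in all 8 libraries, and from it the log2 ratio was 0.098. These ratios were not tested.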

How the data were processed

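Total RNA of 1 ovary per mouse was sequenced by the authors as 50-base single reads. Per the labels and the paper's methods, reads were aligned to mm10 (GRCm38) with TopHat2 2.0.14, and transcripts were assembled with StringTie 1.0.4. The authors deposited counts of reads per gene symbol, whole numbers without normalization. The deposited splice junction files hold counts of reads across each junction, and the deposited StringTie files give coverage per transcript, a signal in reads per base, beside a score that is the same for every row and was not used. The deposited percent of reads mapped to the genome or to 1 feature refers to all reads of a library. How reads were assigned to genes, and whether strand was used, was not given in the sources used here.

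Counts were fitted with edgeR 4.0.16 (R 4.3.3; TMM, filterByExpr with at least 10 counts in 4 libraries of median size and 15 in all, quasi-likelihood test) over all genes and all 8 libraries, and single CPM values were compared by exact permutation. No pair of libraries of a group agreed within sampling noise, so each counted as 1 replicate. The script was tested on simulated data. Positions come from GENCODE vM21, copies from blastn 2.17.0 against its transcripts, and promoters from RefSeq. Reads implied by StringTie are coverage times transcript length over 50, summed over transcripts with at least 50% of their bases in the exons of the member. Log2 CPM used a prior count of 2.

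The members and lists were chosen with earlier results of these data known. Named genes are the 8 members, *Mboat4*, *Srebf2*, *Insig2* and other genes chosen by name, the 2 genes of smallest p in each list, and the 5 genes most like the members. *Sc5d*, *Hsd17b7*, *Acat2*, *Lep*, *Cyp19a1*, *Cyp11a1*, *Amh*, *Foxl2* and the copies and neighbours of members were named after their values were seen. Some genes under this rule are not reported here. Alternatives were RLE scaling, DESeq2 1.42.0, limma-voom (limma 3.58.1), no filter, each library left out, the 6 libraries without WT 1120 and GOAT KO 1139, unscaled CPM, junctions found in all 8 libraries and, chosen after seeing the data, counts summed with the copies. The study left out 1 unnamed library of each group, so all 8 are used in the main comparison.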

Additional observations from a re-analysis of the deposited data

Results flagged for a closer look

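Of 78 groups of 4 libraries checked (39 genes in 2 groups), 10 held a library whose gap to the next, divided by the range of the group, exceeded the 95% critical value of Dixon, and chance gives this in about 1 in 20 groups. Of these, 2 are members: *Dhcr7* was at 42.0 CPM in WT 1120 and at 25.0 to 26.6 in the other WT libraries, and *Lss* was at 38.1 CPM in GOAT KO 1146 and at 27.1 to 28.9 in the other GOAT KO libraries.

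In GOAT KO 1139, *Cfd* was at 161.9 CPM (0.522 to 6.23 in the other GOAT KO libraries), *Fabp4* at 286.4 (4.96 to 14.3), *Scd1* at 332.8 (14.9 to 19.2) and *Star*, the carrier of cholesterol into mitochondria, at 233.2 (8.13 to 20.4). In WT 1120, *Star* was at 31.9 CPM (12.4 to 14.5 in the other WT libraries), *Fads2* at 100.8 (38.9 to 47.1) and *Flrt1* at 11.2 (4.39 to 5.49). *Mboat4* was at 0.163 CPM in WT 1121, from 3 counts, and at 0.0548 to 0.0619 in the other WT libraries.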

How the results depend on the processing

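Over 14 other settings each, the 8 log2 fold changes kept their sign in 103 of 112 values, and none passed an adjusted p under 0.05 or the study's threshold (smallest adjusted p = 0.425 over edgeR, DESeq2 and limma-voom, largest absolute log2 fold change 0.32). With each library left out in turn, values ran from -0.19 to -0.06 for *Hmgcs1*, -0.27 to -0.14 for *Sqle*, -0.28 to -0.11 for *Lss*, -0.32 to -0.13 for *Cyp51* and -0.21 to -0.10 for *Insig1*. They crossed 0 for *Dhcr7* (-0.23 to 0.13; above 0 without WT 1120, at 0.13, and without GOAT KO 1140, at 0.0081), *Fdps* (-0.09 to 0.16; below 0 without WT 1118, at -0.087, and without GOAT KO 1141, at -0.05) and *Idi1* (-0.22 to 0.19; above 0 without WT 1120, at 0.14, GOAT KO 1140, at 0.03, and GOAT KO 1141, at 0.19). *Idi1* was also above 0 with the 6 libraries (0.015) and when summed with its copies (0.13).

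The 4 genes called at an adjusted p under 0.05 became 13 with DESeq2, 7 without the filter and 20 with the 6 libraries, and 3 to 14 with 1 library left out, 14 without GOAT KO 1139. The 278 genes past the study's threshold became 691 without the filter and 231 to 437 with 1 library left out, 437 without WT 1120. The cause was not tested. Unscaled CPM and junctions found in all 8 libraries turned no sign in 14 comparisons.

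No paired analysis was possible because the labels give the groups no animal number in common. Low counts limit the precision of *Idi1* (14 to 33 a library) and *Mboat4* (1 to 8).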

Other observations

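Other lists of cell types stood as follows with all 8 libraries, 0 genes of each at an adjusted p under 0.05 by edgeR. Of 5 tested theca genes, which take up and convert cholesterol into androgens, 4 were above 0 with a median log2 fold change of 0.28; *Star* was at 1.89 (SE 0.95), with 233.2 CPM in GOAT KO 1139, and at -0.10 (SE 0.27) with the 6 libraries left without WT 1120 and GOAT KO 1139, and *Hsd3b1* at 0.15 (SE 0.11). With the 6 libraries, 2 of the 5 had an unadjusted p under 0.05 against 0 with all 8, namely *Hsd3b1* at 0.29 (SE 0.085, adjusted p = 0.403, edgeR) and *Cyp11a1*, the side-chain cleavage enzyme, at 0.48 (SE 0.18, adjusted p = 0.470, edgeR). Of 7 granulosa cell genes, 5 were above 0 (median 0.13), with the FSH receptor *Fshr* at 0.47 (SE 0.16, p = 0.0141, exact permutation p = 0.0857) and the activin subunit *Inhba* at 0.95 (SE 0.36, p = 0.0235, exact permutation p = 0.0571). The 2 below 0 were *Amh* at -0.21 (SE 0.11) and *Foxl2* at -0.17 (SE 0.19). With the 6 libraries *Amh* was at -0.21 (SE 0.090, unadjusted p = 0.0368, edgeR) and *Foxl2* at -0.22 (SE 0.13). Of these 7, 1 passed the study's threshold with all 8 libraries (*Inhba*) and 3 with the 6 libraries (*Inhba* at 1.36, *Fshr* at 0.68 and the aromatase gene *Cyp19a1* at 1.39), none at an adjusted p under 0.05, and their part in the members' values was not tested. With all 8 libraries *Cyp19a1* was at 0.22 (SE 0.77). It was at 64.9 CPM in WT 1120 and at 5.05 to 9.69 CPM in the other WT libraries. All 9 oocyte genes were above 0 (median 0.09), with *Sohlh1* at 0.87 (SE 0.32) and *Figla* at 0.46 (SE 0.19), and 1 of them (*Sohlh1*) passed the study's threshold with either set of libraries.

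All 4 tested leukocyte genes and all 5 blood genes were below 0 (medians -0.28 and -0.28), with *Cd68* at -0.31 (SE 0.16), *Itgb2* at -0.36 (SE 0.28), *Hbb-bs* at -0.37 (SE 0.42) and *Hba-a1* at -0.28 (SE 0.38). Of 3 tested oviduct genes 2 were below 0, with *Krt7* at -0.35 (SE 0.14) and *Foxj1* at 0.53 (SE 0.66). The blood genes summed to 435 and 590 CPM in WT 1118 and 1119 and to between 146 and 336 CPM in the other 6 libraries, and the part of blood in the members' values was not tested.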
